A study of Mus musculus with 3 samples.

Results

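CD4 T cells sorted from the kidneys of lupus-prone MRL/lpr mice were compared between mice in which Ezh2 could be deleted and mice in which it could not. The cells described here are 4719 kidney cells of 5 mice, out of 12916 kidney entries and 30891 entries of both organs in the deposited matrices. They were taken from the kidney barcode blocks of the first day of the tag key (4989 cells). Each block was given to a mouse by the antibody tag that led it, and cells with a Cd8a or Cd8b1 UMI were left out. KO mice carried loxP-flanked Ezh2 (Ezh2fl/fl) with a tamoxifen-inducible Cre fused to an estrogen receptor, driven by the Cd4 promoter (CD4-Cre/ERT2). WT mice were Ezh2fl/fl littermates with no Cre, so both groups carried the floxed allele and the MRL/lpr background. Both groups received tamoxifen at 300 mg/kg until 24 weeks of age, from week 10 (preventative) or week 14 (therapeutic), and the labels do not tie a start to a mouse. The Cre line had been backcrossed for 6 generations. The question, as the series title poses it, was how loss of Ezh2 in CD4 T cells bears on T cells in the kidney. Kidney cells of 2 KO mice (KO1, 634 cells, and KO2, 184 cells) were set against those of 3 WT mice (WT1, 1559 cells, WT2, 1418 cells, and WT3, 924 cells).

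Ezh2 is the methyltransferase subunit of Polycomb repressive complex 2 (PRC2), which places a repressive methyl mark on histone H3 lysine 27. In mammals PRC2 occupies mostly CpG-rich promoters. In T cells it is known for restraining effector and lineage genes and for its part in T cell survival. Naive CD4 T cells keep genes for circulating through blood and lymph nodes switched on (Ccr7, S1pr1 and the factors Klf2, Lef1 and Tcf7). Effector cells that enter inflamed tissue instead carry receptors for inflammatory chemokines and, in part, cytotoxic granule proteins. MRL/lpr mice carry a mutation of Fas and accumulate T cells with age.

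The mouse of each cell rests on a designed oligonucleotide tag on an antibody, so the kidney tags are given here, 5′ to 3′, as the deposited tag key lists them.
KO1: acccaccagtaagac
KO2: ggtcgagagcattca
WT1: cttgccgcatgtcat
WT2: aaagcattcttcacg
WT3: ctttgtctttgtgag
The block's tag led in 100% of the cells of each kidney block, and no barcode was shared between these blocks.

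The median depth per cell lay between 3154.5 and 3480 UMIs over the 5 mice, and the summed UMIs per mouse between 692991 (KO2) and 6314776 (WT1). All 12 T cell markers were detected, with a summed level of 5320 to 5335 CPM (UMIs scaled to a common total per library) in KO and 6389 to 6569 in WT mice. Of the markers of other cells, Ncr1 (NK cells), Kdr, Emcn and Plvap (endothelium) and Hba-a2, Hbb-bs, Hbb-bt and Ppbp (red cells and platelets) were at 0 in all 5 sums. Summed B cell markers, mostly the antibody gene Igkc, stood at 152 to 203 CPM in KO and 308 to 340 CPM in WT mice. Summed kidney tubule markers stood at 4.49 to 284 CPM in KO and 160.4 to 1389 CPM in WT mice. Summed myeloid markers stood at 89.6 to 209 CPM in KO and 25.2 to 106 CPM in WT mice.

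WT1 stood apart from the other WT mice. Over 3073 genes at 50 CPM or more, the median absolute log2 difference was 0.127 between WT2 and WT3 but 0.204 between WT1 and WT2. Between WT1 and KO1 it was 0.151, less than the 0.178 between KO1 and KO2. These sums were not thinned, and KO2 had 692991 UMIs against 2338615 in KO1 and 6314776 in WT1. The part of counting error in the distances to KO2 was not tested. At 171 of these genes the KO mean and the mean of WT2 and WT3 differed at least 2-fold, and WT1 was nearer to the KO mean at 133 of them (77.8%). Values are therefore given per mouse, and counts also without WT1. WT1 was singled out on these same levels, and leaving it out widens the gap wherever it lies between the groups. Calls without it are thus a description and no separate test.

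Ezh2 itself, on chromosome 6 (GRCm38, 47530274 to 47595270), stood at 70.0 and 50.9 CPM in the KO mice. In WT1, WT2 and WT3 it stood at 86.7, 148 and 126 CPM. Both KO mice were below all WT mice, with WT1 the nearest. The fitted log2 fold difference was -0.95 ± 0.27 (SE, n = 2 KO and 3 WT mice), with an adjusted p of 0.339 by edgeR. An exact two-sided permutation test over mice gave p = 0.2, where 0.1 is the smallest that 2 against 3 mice allow. Without WT1 the log2 difference was -1.13 with an adjusted p of 0.0153 by edgeR, and over all alternatives that adjusted p ran from 0.0153 to 0.6997. Transcript remained in the KO cells, and whether the counted reads come from the deleted part of the gene is not known from 5′ counts. In these sums, fewer cells of a type and less RNA per cell cannot be told apart.

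No gene passed the test across the genome. Of 10351 genes tested by edgeR's quasi-likelihood test, 0 (0%) had an adjusted p under 0.05, the smallest being 0.184. At an unadjusted p of 0.05, 1240 genes passed, and DESeq2 called 85 (0.821%), of which 52 (0.502%) were higher and 33 (0.319%) lower in KO. With no filter on low counts edgeR called 101 of 18799 genes (0.537%), 55 higher (0.293%) and 46 lower (0.245%). Leaving out WT1 gave 835 calls among 9990 genes (8.36%), of which 533 (5.34%) were higher and 302 (3.02%) lower in KO. Leaving out any other mouse gave 0, with between 728 and 975 genes at an unadjusted p of 0.05. In 1752 genes (16.9%) both KO mice lay above all WT mice, and in 1744 (16.8%) below. These last shares are the background for the counts of non-overlapping genes in the lists described next. Genes named below are given with values, and none of their kidney differences passed the test over all 5 mice.

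The 15 higher genes were those of smallest p with KO mice above every WT mouse and a mean of at least 10 CPM. The 15 lower genes were chosen alike, so separation of the groups is part of the choice. Among the higher genes, several belong to naive or resting T cells. Lef1, which encodes a Wnt-pathway factor that naive T cells express (chromosome 3, 131110297 to 131224357), stood at 267 and 377 CPM in KO. It stood at 94.8, 78.1 and 69.9 CPM in WT mice, and WT1 lay with WT2 and WT3. The log2 difference was 1.98 ± 0.20 (SE), with an adjusted p of 0.184. Lef1os1, annotated antisense to Lef1, stood at 30.3 and 43.4 CPM in KO against 6.71, 5.47 and 5.49 CPM in WT. Whether the counting used strand is not given in the sources used here, so reads of the pair may not be separable. Bach2, a repressor that holds effector genes in check, stood at 431 and 435 CPM in KO against 203, 119 and 127 CPM in WT. Foxp1, a factor of T cell quiescence, stood at 308 and 316 CPM in KO against 165, 110.5 and 110.4 CPM in WT. Actn1, an actin crosslinker, stood at 101 and 118 CPM against 21.1, 8.29 and 12.4 CPM. In all 5 of these genes the KO mice were above every WT mouse, which the ranking required.

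The same ranking held genes of other roles. Bambi, a decoy receptor of TGF-beta signalling, stood at 75.8 and 82.3 CPM in KO against 32.1, 22.6 and 24.9 CPM in WT. Amigo2, an adhesion molecule, had the largest log2 difference of these 15 genes, at 4.06 ± 0.54 (SE), with 39.7 and 26.9 CPM in KO and 3.601, 0.829 and 1.45 CPM in WT. Pcgf5 is a subunit of the other Polycomb complex, PRC1. It stood at 129 and 115 CPM in KO against 70.2, 72.7 and 71.7 CPM in WT, a narrow WT range. Other genes of the ranking were Rflnb, Fam241a, Igfbp4, 1810041H14Rik, Patj and Fchsd2, with log2 differences from 1.00 to 3.63.

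On the lower side, Nkg7, a cytotoxic granule protein (chromosome 7, 43437138 to 43438246), stood at 461 and 449 CPM in KO against 1094, 2216 and 2002 CPM in WT. Its log2 difference was -1.96 ± 0.31 (SE), with an adjusted p of 0.298. Prf1, the pore-forming perforin, stood at 14.7 and 26.9 CPM in KO against 48.6, 70.7 and 71.4 CPM in WT. Both granule genes were lowest among WT mice in WT1. Cxcr6, a chemokine receptor of tissue T cells, stood at 49.9 and 74.8 CPM in KO against 134, 132 and 118 CPM in WT, and here WT1 lay with the other WT mice. Osr2, a zinc finger gene, had the lowest log2 difference of these 15 genes, at -2.44 ± 0.34 (SE), with 12.5 and 8.97 CPM in KO and 76.8, 43.8 and 65.0 CPM in WT. S100a6, a calcium-binding protein, stood at 498 and 676 CPM in KO against 1073, 1182 and 1104 CPM in WT. Havcr2, the inhibitory receptor TIM-3, stood at 13.8 and 17.9 CPM against 32.6, 50.1 and 39.9 CPM.

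Igkc, an immunoglobulin light chain that T cells do not make, was also among the 15 lower genes, at 98.5 and 151 CPM in KO against 275, 331 and 270.2 CPM in WT. Cells with an Igkc UMI made up 13.2% and 14.1% in KO mice and 13.3%, 51.5% and 36.3% in WT1, WT2 and WT3, so WT1 lay with the KO mice. In WT1 a single cell held 551 of the 1682 Igkc UMIs. The part of Igkc in the other differences was not tested. Leaving out every cell with at least 2 UMIs of other-cell markers gave 0 calls (1174 genes at an unadjusted p of 0.05). All cells gave 0 calls too, so this count cannot show that part. The cells left out made up 12.5% and 16.8% in KO mice and 14.0%, 35.6% and 22.3% in WT1, WT2 and WT3. The other lower genes were Mad2l2, Dhrs1, AW112010, Chst12, Vmp1, Impact, Syt11 and Lamtor4, with log2 differences from -1.28 to -0.70.

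Since PRC2 favours CpG-rich promoters, the CpG content upstream of the ranked genes was counted, a step chosen after the values were seen. The motif was CG, which reads the same on both strands, in the 250 bases before the most upstream RefSeq start (GRCm38.p6). A window was found for 12 of the 15 higher genes, with a median of 20 CpG and a range of 7 to 38. It was found for 12 of the 15 lower genes, with a median of 4.5 and a range of 0 to 38. Over all genes tested, 8168 had a window, with a median of 17, so the higher genes lay near that background and the lower genes below it. The ranges overlap, and the counts are a description with no test. The windows of Lef1 (chr3:131110047-131110296, plus strand) and Nkg7 (chr7:43436888-43437137, plus strand) are shown because each is the first of its direction whose window ends at the gene's annotated start, with CG in capitals.
Lef1: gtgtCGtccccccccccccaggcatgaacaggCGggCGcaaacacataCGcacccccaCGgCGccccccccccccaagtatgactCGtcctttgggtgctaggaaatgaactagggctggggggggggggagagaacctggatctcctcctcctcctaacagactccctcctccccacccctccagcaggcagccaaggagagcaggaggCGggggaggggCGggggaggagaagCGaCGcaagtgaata
Nkg7: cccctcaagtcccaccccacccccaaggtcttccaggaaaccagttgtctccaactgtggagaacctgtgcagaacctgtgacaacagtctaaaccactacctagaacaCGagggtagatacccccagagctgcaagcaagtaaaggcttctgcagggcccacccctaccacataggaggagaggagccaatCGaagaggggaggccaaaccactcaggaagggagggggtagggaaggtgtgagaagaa
The Lef1 window held 11 CpG, more than 64.0% of all promoters, and the Nkg7 window held 2, more than 19.5% of them. Both windows were below the median of 17 over the genes tested. No histone mark was measured in these cells.

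Most naive and circulation genes lay above the WT mice in both KO kidneys. Of 15 members, all tested, 13 were above every WT mouse in both KO mice, 0 were below and 2 overlapped, where 16.9% of all genes were above. Their median log2 difference was 1.48, with a range of 0.67 to 3.63, beside a median of -0.00 over all genes. None passed edgeR's test over 5 mice (all 15 members, 0 calls). With DESeq2 9 passed, where 0.502% of genes passed on that side. In edgeR's test without WT1 14 passed, where 5.34% of genes passed on that side. The list was chosen with earlier results of these samples known.

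Within this group, Igfbp4, an IGF-binding protein of naive T cells (chromosome 11, 99040005 to 99052655), showed one of the widest gaps. It stood at 291 and 263 CPM in KO against 24.4, 7.63 and 36.7 CPM in WT, a log2 difference of 3.63 ± 0.54 (SE) with an adjusted p of 0.298. Ccr7, the lymph node homing receptor, stood at 895 and 986 CPM in KO. In WT it stood at 401 CPM in WT1 but at 61.0 and 89.0 CPM in WT2 and WT3, so WT1 lay between the groups. Klf2, the factor behind S1pr1, stood at 1888 and 2214 CPM against 1346, 796 and 861 CPM. Tcf7 stood at 416 and 368 CPM against 224, 131 and 177 CPM. Il7r, the receptor for the survival cytokine IL-7, overlapped, because WT1 at 465 CPM lay between the KO values of 479 and 375 CPM while WT2 and WT3 stood at 66.5 and 124 CPM.

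Most cytotoxic granule genes lay the other way. Of 12 members 11 were tested (Gzmc was too low), and in 9 of the 11 both KO mice were below every WT mouse, in 0 above, where 16.8% of all genes were below. The median log2 difference was -1.75, with a range of -3.29 to -0.42. None passed edgeR's test over 5 mice. With DESeq2 3 passed, where 0.319% of genes passed on that side. In edgeR's test without WT1 8 passed, where 3.02% of genes passed on that side. Gzmk, granzyme K (chromosome 13, 113171630 to 113180965), stood at 55.7 and 117 CPM in KO and at 189.7, 1191 and 1047 CPM in WT. The gap between WT1 and the other WT mice was thus far larger than that between WT1 and KO2. Ccl5, a chemokine stored with the granules, stood at 1294 and 2923 CPM in KO against 5442, 15526 and 7532 CPM in WT. Cst7, a granule protease inhibitor, stood at 94.1 and 112 CPM against 163, 269 and 223 CPM.

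**Figure D1:**
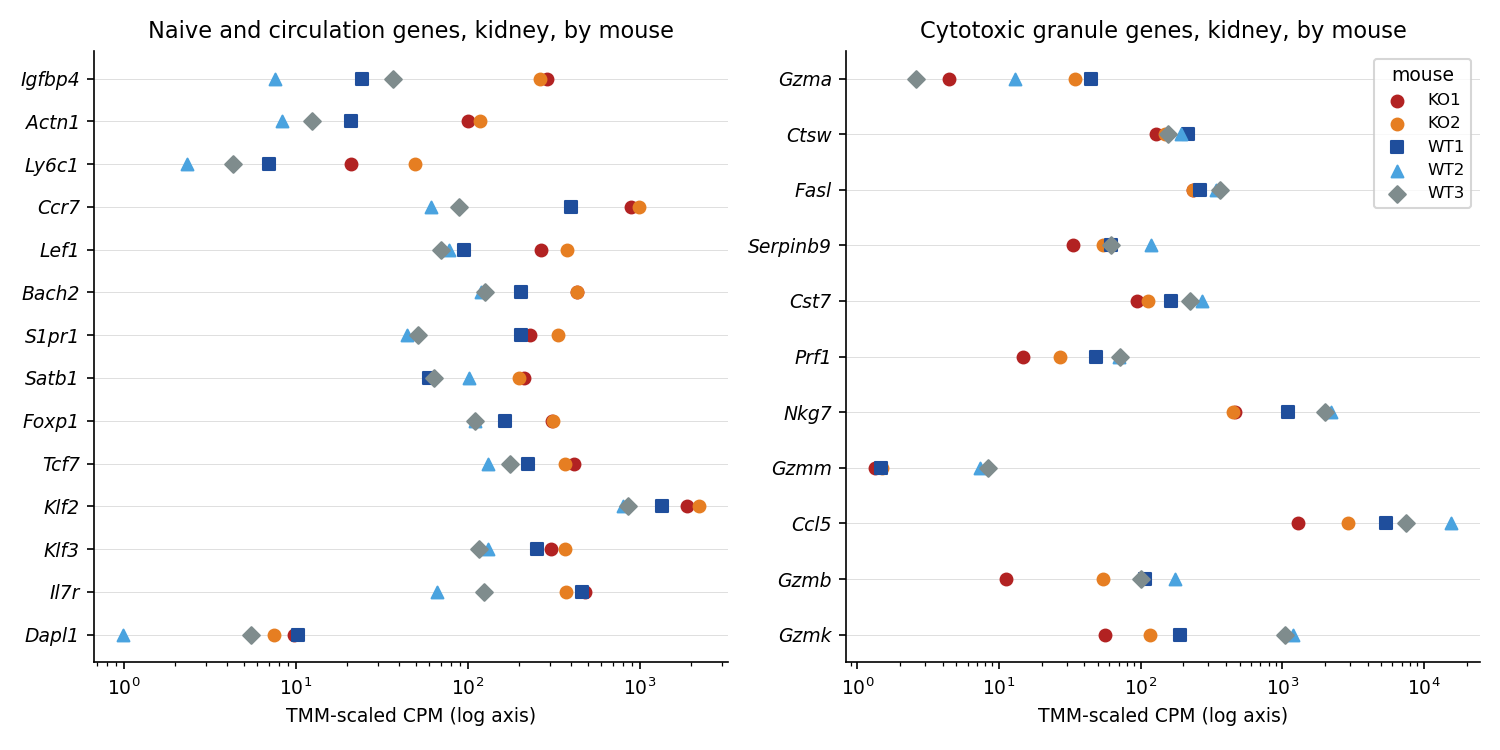
TMM-scaled CPM (log axis) of 14 of the tested naive and circulation genes (left) and cytotoxic granule genes (right) in kidney CD4 T cells, 1 point per mouse. For Igfbp4, Actn1, Lef1 and Bach2 both KO points lie to the right of every WT point, while for Gzmk and Ccr7 WT1 lies between the KO mice and the other WT mice.

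Whether these differences also showed in the share of cells was examined in cells thinned to 1500 UMIs each, for 11 genes chosen after their values were seen. Shallower cells were left out (24, 8, 76, 58 and 43 cells of KO1, KO2, WT1, WT2 and WT3). Lef1 had a UMI in 26.4% (95% Wilson interval 23.1 to 30.0) and 31.8% (25.4 to 39.0) of KO cells. In WT mice the share was 10.8%, 10.7% and 11.2%. Igfbp4 had a UMI in 11.5% and 14.2% of KO cells and in 1.55%, 0.662% and 1.02% of WT cells, and positive KO cells held 3.16 and 2.64 UMIs of it on average against 1.33 to 1.96 in WT. So for Igfbp4 both the share of cells and the count per positive cell were higher in the KO mice. The WT counts per positive cell rest on few cells, at most 40, 22 and 17 in WT1, WT2 and WT3 before thinning.

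Ccr7 had a UMI in 40.0% and 38.6% of KO cells against 21.0%, 4.41% and 8.29% of WT cells. Gzmk had one in 5.08% and 11.4% of KO cells, in 16.3% of WT1 cells and in 75.7% and 66.9% of WT2 and WT3 cells. WT1 was thus much nearer to the KO mice than to its own group in Gzmk. Nkg7 had a UMI in 30.2% and 28.4% of KO cells against 47.0%, 88.7% and 83.8% of WT cells. Ccr2, a receptor of inflammatory chemokines, showed the same order of mice as Gzmk, at 2.62% and 4.55% in KO against 7.35%, 36.8% and 34.1% in WT. Cxcr6 did not set WT1 apart, at 4.43% and 7.95% in KO against 14.0%, 16.4% and 15.2% in WT.

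The genes were chosen for their levels, so these shares are a description with no test, and 2 against 3 mice cannot give an exact permutation p below 0.1. A set of 24 cells, pooled over kidney and spleen, carried myeloid or tubule transcripts and at most 1 UMI of T cell markers. Thinned alike, these cells had no UMI of Lef1, Bach2, Gzmk, Nkg7, Cxcr6 or Foxp3, which allows a share of up to 12.5%. Igfbp4 had one in 9 of these 24 cells (37.5%), so its transcript was not limited to T cells in the pooled organs. The share in kidney cells of this kind alone was not tested. Intervals and limits cover counting error only.

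**Figure D2:**
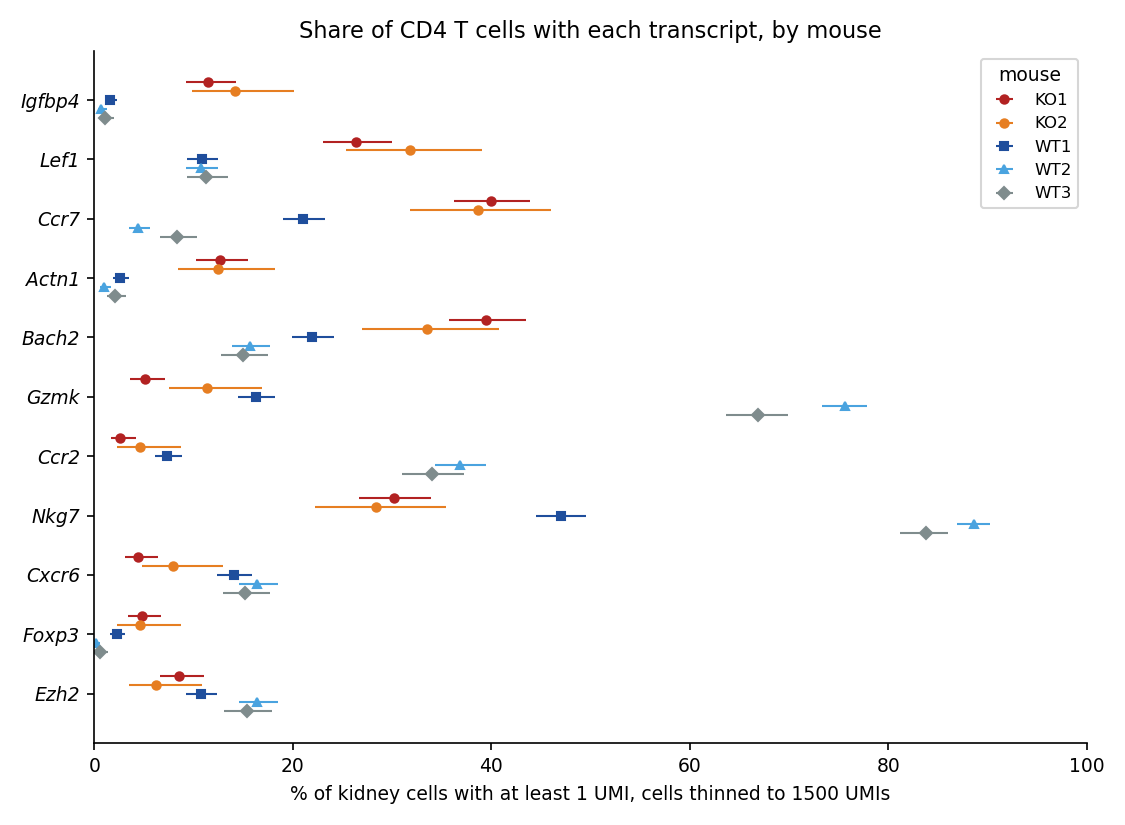
Share of kidney CD4 T cells with at least 1 UMI of each gene, in percent, after thinning every cell to 1500 UMIs, with 1 point per mouse and 95% Wilson intervals. The KO mice are to the right of all WT mice in the first 5 genes, and WT2 and WT3 stand far to the right in Gzmk, Ccr2 and Nkg7.

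In the KO mice, WT1 and WT2 a Ccr7 UMI was more frequent in cells with an Igfbp4 UMI than in cells without one. In KO1, 76 of 88 cells with an Igfbp4 UMI also had a Ccr7 UMI (86.4%), against 45.8% of the 546 cells without one. In KO2 it was 32 of 35 cells (91.4%) against 35.6%. In WT1 it was 25 of 40 (62.5%) against 29.9%, and in WT2 6 of 22 (27.3%) against 7.45%. In WT3 it was 3 of 17 (17.6%) against 12.8%, too few cells to set the shares apart, and Lef1 had a UMI in 1 of those 17 cells (5.88%) against 19.6% of the others. Cells with Igfbp4 were deeper, with a median of 3770 UMIs against 3232 in KO1 and of 4724.5 against 3402 in WT2, and these shares were not thinned. Gzmk had a UMI in 0 of the 88 Igfbp4-positive KO1 cells, against 11.0% of the others, and in 3 of the 35 in KO2, against 21.5%. In WT mice it had one in 7 of 40, 15 of 22 and 8 of 17 Igfbp4-positive cells, against 24.0%, 88.1% and 78.9% of the others. Many Igfbp4-positive cells of WT2 and WT3 thus also held Gzmk.

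Cells were then called naive-type when they had a UMI of at least 2 of 5 genes (Ccr7, Lef1, Igfbp4, Actn1 and S1pr1). After thinning they made up 31.0% and 34.1% of KO cells against 12.0%, 1.91% and 4.31% of WT cells. These genes were chosen with their levels known, so the shares are a description with no test. Every KO mouse was above every WT mouse, and among WT mice WT1 was highest. The cells left out next were called at full depth, where more cells reach 2 genes, at 49.5% and 50.5% of KO cells and 29.3%, 8.32% and 11.3% of WT cells. Without them 320, 91, 1102, 1300 and 820 cells of KO1, KO2, WT1, WT2 and WT3 remained. edgeR again called 0 genes, with 970 at an unadjusted p of 0.05.

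In the cells that remained, the naive and cytotoxic medians kept their sign and were nearer to 0. The median of 10 naive genes outside that rule was 1.21 in all cells and 0.74 without naive-type cells, and the cytotoxic median went from -1.75 to -0.75. In these remaining cells both KO mice were above every WT mouse in 6 of those 10 naive genes, where 14.6% of all genes were, and below in 7 of 11 cytotoxic genes, where 17.1% were. Bach2 went from a log2 difference of 1.53 to 1.09, Tcf7 from 1.15 to 1.10 and Foxp1 from 1.27 to 0.62. Gzmk went from -3.29 to -2.76 and Nkg7 from -1.96 to -1.47. The median of the regulatory T cell list was farther from 0 there, 1.38 against 0.97.

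**Figure D3:**
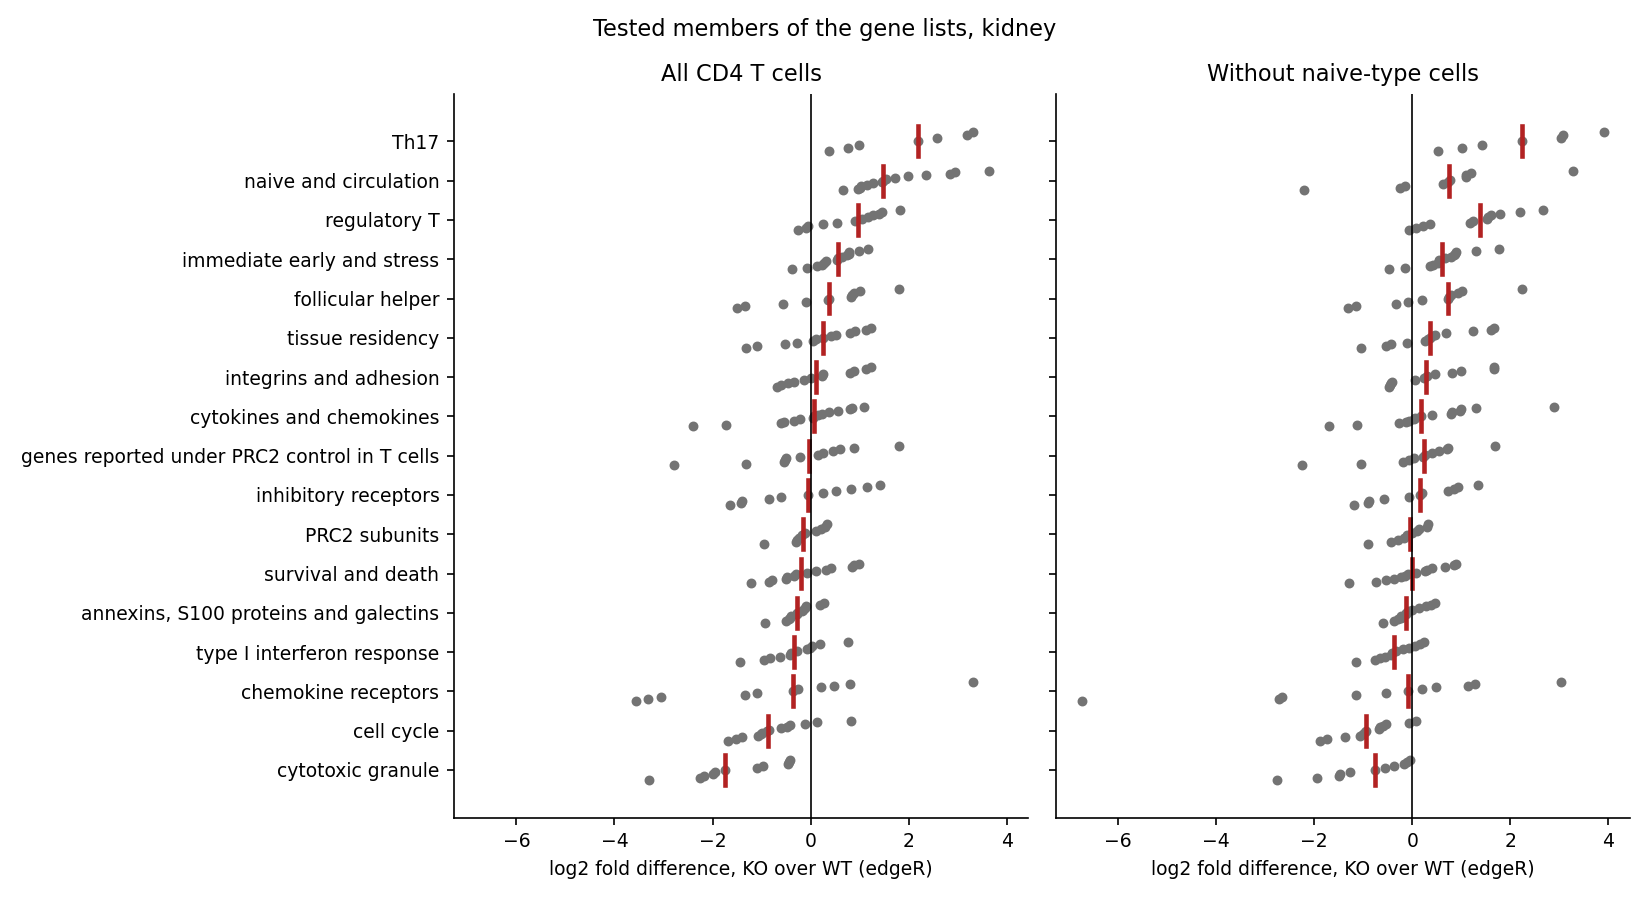
Log2 fold difference, KO over WT, of the tested members of 17 gene lists in all kidney CD4 T cells (left) and without naive-type cells (right), with 1 grey point per gene and a red bar at each list's median. The 5 genes that define naive-type cells are left out on the right, where the naive median is 0.74 and the cytotoxic median -0.75.

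Receptors that guide T cells into tissue lay in both directions. Of 15 chemokine receptors 11 were tested, and in 4 both KO mice were below every WT mouse and in 2 above. Over all genes, 16.8% were below and 16.9% above, so the 2 above were near that share. The median log2 difference was -0.37. Ccr2, the receptor for the monocyte chemoattractant CCL2, stood at 19.2 and 34.4 CPM in KO and at 55.3, 359 and 327 CPM in WT. In this gene WT1 was nearer to the KO mice than to WT2. Ccr6, the receptor for CCL20, stood at 10.3 and 10.5 CPM in KO against 1.80, 0.332 and 0.867 CPM in WT, and Cxcr4 at 206 and 184 CPM against 159, 129 and 136 CPM. Cxcr3, a receptor for interferon-induced chemokines, overlapped, at 122 and 114 CPM in KO and 116.5, 175 and 166 CPM in WT. Without WT1, 3 of the 11 passed edgeR's test as higher and 6 as lower in KO, where 5.34% and 3.02% of all genes did.

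Integrins and adhesion molecules showed no common direction. In 12 tested members of 14, both KO mice were above all WT mice in 1 and below in 3, with a median of 0.11. The shares over all genes were 16.9% above and 16.8% below. Itgb2 and Itgal, the 2 chains of LFA-1, were lower in both KO mice, Itgb2 at 241 and 263 CPM against 297, 469 and 456 CPM and Itgal at 136 and 130.1 CPM against 143, 235 and 229 CPM. Itgb1, the common beta-1 chain, overlapped, at 850.2 and 881 CPM in KO, 995 CPM in WT1 and 194 and 221 CPM in WT2 and WT3. WT1 was the highest of the 5 mice in this gene.

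Cytokine genes likewise had a median near 0 (0.07 over 15 tested of 18). There were 2 above and 3 below, where 16.9% and 16.8% of all genes were. The 3 below were Ifng, Ccl3 and Ccl4. Ifng, interferon gamma, stood at 226 and 175 CPM in KO against 293, 302 and 289 CPM in WT, a narrow WT range that included WT1. Ccl4, an inflammatory chemokine, stood at 28.1 and 178 CPM against 214, 809 and 475 CPM. Without naive-type cells the log2 difference of Ifng was -0.07, against -0.54 in all cells, while that of Ccl4 was -1.69, against -2.40.

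Tissue residency genes (13 tested of 14) had a median of 0.26, with 2 above and 3 below, where 16.9% and 16.8% of all genes were. The lower ones were Cxcr6, Prdm1 and Runx3. Prdm1, the effector factor Blimp-1, stood at 33.0 and 20.9 CPM in KO against 48.3, 79.0 and 85.8 CPM in WT. Runx3, a factor of cytotoxic and resident T cells, stood at 197 and 185.5 CPM against 201, 288 and 331 CPM. Fosl2, an AP-1 subunit, was higher in KO, at 296 and 260.3 CPM against 246, 120.3 and 109.8 CPM. The KO mice lay only just beyond WT1 in Runx3 and Fosl2.

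Inhibitory receptors and related genes (11 tested of 12) had a median of -0.06, with 1 above and 4 below. The 4 below were Havcr2, Tigit, Entpd1 and Tox2, and 16.9% of all genes were above and 16.8% below. Tigit stood at 212 and 172 CPM in KO against 252, 436 and 354 CPM in WT. Entpd1, which encodes the ectonucleotidase CD39, stood at 21.8 and 29.9 CPM against 54.8, 98.9 and 79.2 CPM. Ctla4 overlapped, at 828 and 619 CPM in KO and 733, 343 and 445 CPM in WT. Without WT1, 4 of these genes passed as higher and 4 as lower, where 5.34% and 3.02% of all genes did.

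Regulatory T cell genes (12 tested) had a median of 0.97, yet only Foxp3 separated the groups, with 16.9% of all genes above. Foxp3, the defining factor of these cells (chromosome X, 7579676 to 7595243), stood at 45.0 and 49.4 CPM in KO and at 33.1, 0.829 and 4.91 CPM in WT. Its log2 difference was 1.81 ± 1.11 (SE), and the gap among WT mice was larger than that between WT1 and the KO mice. A Foxp3 UMI was found in 4.75% and 4.55% of thinned KO cells against 2.23%, 0.147% and 0.568% of WT cells. Ikzf2, which encodes Helios, overlapped, at 179 and 103 CPM in KO and 155.5, 16.1 and 35.8 CPM in WT. Nt5e, which encodes CD73, overlapped too, at 48.2 and 68.8 CPM in KO and 48.6, 4.31 and 16.5 CPM in WT. Without WT1, 7 of the 12 passed as higher and 0 as lower, where 5.34% and 3.02% of all genes did.

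Th17 genes had the highest list median, 2.19, but only 7 of 11 were tested and most were rare. In 5 of the 7 both KO mice were above all WT mice, 1 passed DESeq2 and 2 passed edgeR's test without WT1. Of all genes, 16.9% were above all WT mice, 0.502% were called higher by DESeq2 and 5.34% by edgeR without WT1. Il17a stood at 4.46 and 31.4 CPM in KO against 4.09, 0 and 0.867 CPM in WT. Il23r, a receptor that sustains Th17 cells, stood at 4.90 and 4.49 CPM against 1.47, 0 and 0.867 CPM. Ramp1, part of the receptor for the neuropeptide CGRP, was better measured, at 39.7 and 47.9 CPM against 18.5, 4.48 and 4.62 CPM. Rora, which was detected widely, stood at 304 and 369 CPM against 214, 300.4 and 263 CPM.

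Follicular helper genes (11 tested of 12) had a median of 0.38. Their counts of 2 above and 2 below were near the shares over all genes, 16.9% and 16.8%. Sh2d1a, the adaptor SAP, stood at 109 and 74.8 CPM in KO against 135, 329 and 335 CPM in WT. Maf stood at 140.4 and 178 CPM against 244, 214 and 241 CPM. Slamf6 stood higher, at 168.5 and 197 CPM against 153, 51.8 and 104 CPM. Cxcr5, the follicle homing receptor, overlapped through WT1, at 13.8 and 11.97 CPM in KO and 9.17, 41.0 and 51.4 CPM in WT.

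Apart from Ezh2, the PRC2 subunits lay close together. Of 11 subunits 10 were tested, with a range of log2 differences from -0.95, which is Ezh2, to 0.32, and 8 overlapped. Eed, the subunit that reads the mark, stood at 111.5 and 89.7 CPM in KO against 94.4, 86.4 and 83.2 CPM in WT. Jarid2, an accessory subunit, stood at 203 and 151 CPM against 181, 112 and 135 CPM. Aebp2 was the subunit above in both KO mice, at 164.5 and 164.5 CPM against 141, 153 and 164 CPM, a difference of 0.11 on the log2 scale.

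Genes reported to lie under PRC2 control in T cells showed no common direction either (12 tested of 16, median -0.03, 2 above and 3 below). The shares over all genes were 16.9% above and 16.8% below. Eomes, a T-box factor of cytotoxic cells, stood at 40.1 and 64.3 CPM in KO and at 107, 434 and 494 CPM in WT. Bcl2l11, the pro-apoptotic BIM, stood at 66.4 and 79.3 CPM against 42.4, 41.5 and 32.4 CPM, and its log2 difference went from 0.89 to 0.25 without naive-type cells. Cdkn1a, a cell cycle inhibitor, overlapped, at 269 and 166 CPM in KO and 177, 133 and 123 CPM in WT. Icos, a costimulatory receptor, overlapped as well, at 417 and 405 CPM in KO and 581, 206 and 249 CPM in WT. Zbtb16, which encodes PLZF and was named after its values were seen, was below the filter, at 2.68 and 16.5 CPM in KO and 0.818, 0 and 0 CPM in WT.

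Type I interferon response genes (12 tested of 15) had a median of -0.34. Among them 1 was above and 2 were below, beside 16.9% and 16.8% of all genes. Irf7 stood at 105 and 109 CPM in KO against 119.8, 211 and 293 CPM in WT. Isg20 stood at 33.0 and 25.4 CPM against 51.4, 60.1 and 48.6 CPM. Usp18 was the gene above, at 9.36 and 10.5 CPM against 5.56, 6.64 and 4.91 CPM, with a log2 difference of 0.77 that was -0.66 without naive-type cells.

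Cell cycle genes (14 tested) had a median of -0.87, and in 5 both KO mice were below all WT mice, in 0 above. Over all genes, 16.8% were below and 16.9% above. Mki67, the proliferation marker, stood at 22.7 and 29.9 CPM in KO against 45.8, 113 and 40.2 CPM in WT. Top2a stood at 40.1 and 47.9 CPM against 59.1, 116 and 65.0 CPM. Rrm2, a subunit of ribonucleotide reductase, stood at 14.3 and 4.49 CPM against 27.0, 43.6 and 24.6 CPM, and Tyms, thymidylate synthase, at 16.9 and 7.48 CPM against 21.9, 35.0 and 24.6 CPM. WT2 was the highest mouse in all 4 genes. None of the 14 passed DESeq2 or edgeR's test without WT1.

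Survival and death genes (14 tested) had 4 above and 4 below, where 16.9% and 16.8% of all genes were. Fas, the death receptor that the lpr mutation disables, stood at 147 and 114 CPM in KO against 80.0, 74.5 and 67.1 CPM in WT. Bcl2a1b, an anti-apoptotic family member, stood at 163 and 130.1 CPM against 228, 294 and 280.3 CPM, though Bcl2a1 genes are near-identical copies between which reads may be split. Mcl1 stood at 423 and 450.2 CPM against 379.7, 317 and 355 CPM in WT, and Bcl2 overlapped, at 154 and 271 CPM in KO and 185, 39.3 and 91.0 CPM in WT.

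Immediate early and stress genes (14 tested) had a median of 0.55, with 6 above and 0 below (16.9% and 16.8% of all genes). Fos stood at 1224 and 891 CPM in KO against 646, 531 and 669.9 CPM in WT. Zfp36, which destabilises cytokine messages, stood at 943 and 954 CPM against 642, 533 and 473 CPM. Ier2 stood at 741 and 817 CPM against 575, 360.3 and 461 CPM, Junb at 5177 and 5048 CPM against 4552, 2527 and 3468 CPM and Dusp1 at 1299 and 1179 CPM against 911, 670.2 and 931 CPM. Each of these 5 genes had both KO mice above every WT mouse. Without naive-type cells the median was 0.60 and 8 of the 14 were above, where 14.6% of all genes were. These genes are known to respond to tissue dissociation, which all mice underwent, and its part was not tested.

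Annexins, S100 proteins and galectins (13 tested) had a median of -0.27, with 3 below, S100a6, S100a11 and S100a13, and 0 above. Over all genes, 16.8% were below and 16.9% above. S100a11 stood at 634 and 821 CPM in KO against 953, 1028 and 994 CPM in WT. S100a13 stood at 136 and 164.5 CPM against 238.5, 212 and 183 CPM. Vim, vimentin, overlapped, at 1145 and 1559 CPM in KO and 1594, 1223 and 1540 CPM in WT.

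The KO effect in the kidney was then compared with that in the spleen of the same 5 mice, where the same rule left 8034 cells. The model held all 10 sums with the mouse as a block and tested the interaction of organ and genotype, and these levels are scaled over both organs. Of 12031 genes 12 passed (0.0997%), of which 7 (0.0582%) had the higher KO effect in kidney and 5 (0.0416%) the lower. Without the mouse block 0 genes passed (449 at an unadjusted p of 0.05 by edgeR), and leaving out a mouse gave 3 (KO1), 0 (KO2, 906 at an unadjusted p of 0.05 by edgeR), 157 (WT1), 2 (WT2) or 13 (WT3). Fasl, the ligand of Fas, was among the 12. It stood at 245 and 239.5 CPM in KO kidneys against 278, 363.5 and 385 CPM in WT kidneys. In spleens it stood at 46.7 and 54.1 CPM in KO against 127, 222 and 217 CPM in WT. The KO mice were thus near the WT mice in the kidney and well below them in the spleen, with a difference of effects of 1.38 ± 0.18 (SE) on the log2 scale and an adjusted p of 0.0370.

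Anxa2, a membrane-binding annexin, gave a like picture. It stood at 283 and 459 CPM in KO kidneys against 337, 483 and 451 CPM in WT kidneys, and at 107 and 121 CPM in KO spleens against 308, 392 and 317 CPM in WT spleens. The difference of effects was 1.35 ± 0.20 (SE), with an adjusted p of 0.0491. Without cells that had at least 2 UMIs of other-cell markers it was 1.22, with an adjusted p of 0.0851 by edgeR. In KO2 kidney cells 1 cell held 81 of the 299 Anxa2 UMIs (27.1%), so the KO2 kidney level rests in part on it. The level without that cell was not tested. Perp, an adhesion and p53-response gene, stood at 56.0 and 81.4 CPM in KO kidneys against 85.1, 87.1 and 96.3 CPM in WT kidneys. In spleens it stood at 8.86 and 15.9 CPM in KO against 37.7, 38.5 and 50.1 CPM in WT, a difference of effects of 1.41 ± 0.20 (SE) with an adjusted p of 0.0444. In these 3 genes the KO mice lay below all WT mice in the spleen by a wide margin, and near or within the WT range in the kidney.

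Zeb2, a factor of terminal effector cells, stood at 90.5 and 81.4 CPM in KO kidneys against 50.8, 40.0 and 23.5 CPM in WT kidneys. In spleens it stood at 21.1 and 21.5 CPM in KO and 42.2, 26.8 and 14.9 CPM in WT, and the difference of effects was 1.55 ± 0.21 (SE), adjusted p 0.0370. Dsp, a desmosome protein, stood at 14.5 and 16.9 CPM in KO kidneys against 7.25, 1.06 and 0.914 CPM in WT kidneys, and at 6.24 and 4.78 CPM in KO spleens against 34.6, 4.78 and 4.26 CPM in WT spleens. The high spleen value of Dsp was that of WT1 alone, where 187 of 2321 cells had a UMI.

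**Figure D4:**
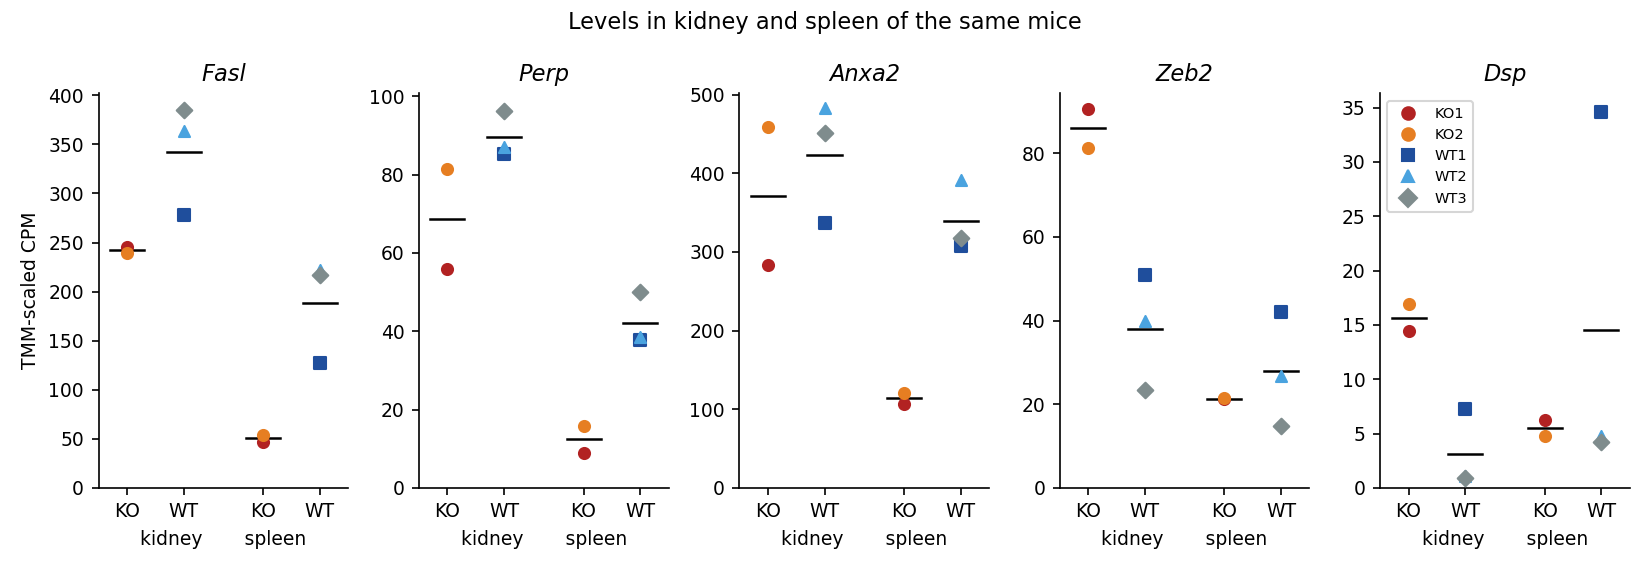
TMM-scaled CPM, scaled over both organs, of 5 genes in kidney and spleen CD4 T cells of the same 2 KO and 3 WT mice, with 1 point per mouse and a bar at each group's mean. Fasl, Perp and Anxa2 are far below the WT mice in the KO spleens and close to them in the KO kidneys, while Zeb2 is above them in the KO kidneys.

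Of the other called genes, 5 are described here, all markers of other cells that rested on few cells. S100a8 and S100a9, of neutrophils, had 33 and 58 UMIs in KO2 kidney cells, all in 2 cells. In the spleen a single cell held 99.8% of the S100a9 UMIs of WT1. Pck1, Fbp1 and Gatm are genes of kidney tubule or liver metabolism. Fbp1 had 13 UMIs in KO1 kidney cells, all in 1 cell, and 233 in WT3 kidney cells, 77 of them in 1 cell. Without cells that had at least 2 UMIs of other-cell markers, 10 genes passed, and 3 of them, Fasl, Perp and Dsp, were also among the 12. The other 7 were Lax1, Xcl1, Il21, Spp1, Bambi, Jmy and 1700017B05Rik. That alternative was added after the 12 genes were seen.

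The list medians of both organs are set side by side, with no test of their likeness. The naive list had a median of 1.48 in the kidney and 2.01 in the spleen, the cytotoxic list -1.75 and -2.57, and the cell cycle list -0.87 and -1.31. In 4 lists the medians had opposite signs, at 0.07 and -0.68 for cytokines, 0.38 and -0.27 for follicular helper genes, 0.11 and -0.21 for integrins and -0.34 and 0.04 for interferon response genes. The immediate early list stood at 0.55 and 0.15, the annexin list at -0.27 and -0.82 and the list of genes under PRC2 control at -0.03 and -0.58. No member of the naive list passed the test of the difference between organs, and of the cytotoxic list Fasl did. In the spleen, 41 of 11546 genes (0.355%) passed the KO test itself. The kidney and spleen sums come from the same mice and are not independent.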

How the data were processed

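Per the file headers and values, the authors deposited unnormalized UMI counts, as whole numbers, with 32285 rows of genes and 10 of antibody tags per organ. The submitters' processing notes name Cell Ranger 7.1.0 and Seurat 5.0.1, with mm10 (GRCm38) as the build. Alignment settings, strand and the rule that called cells are not stated there.

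Blocks of the second day of the tag key, which repeat the same cells under several mice, were not used here. Tag sequences in the key and tag numbers in the matrices were joined by the key's order. Doublets within 1 mouse could not be recognised, and no doublet caller was run. Sums per mouse entered edgeR 4.0.16 under R 4.3.3 (quasi-likelihood, TMM, filterByExpr, Benjamini-Hochberg at 0.05), with DESeq2 1.42.0 as an alternative. The code was tested on simulated counts with the same spread between mice for every gene and no outlying mouse. That test checks the code and does not show which changes could be found in these data. CPM are TMM-scaled, and SE is the log2 difference over the square root of F. The comparison of organs blocked on the mouse, since the tag key gives both organs to the same 5 animals. Mice are separate animals, and each organ of a mouse is 1 sum. Cell shares are a description over mice.

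Beside Ezh2, named genes were up to 15 a direction by smallest p with groups not overlapping and a mean of at least 10 CPM, up to 10 of largest size between organs, and of each of 17 lists those called, the 4 highest and the 4 of smallest p. Anxa2, Zbtb16 and the genes called only in an alternative were named outside that rule. Some genes that the rule names are not reported here by name, and counts over lists hold them. The naive-type rule was shortened to 5 genes for the same reason. Members and lists were chosen with earlier results of these data known. Of 140 genes so chosen, 139 had a RefSeq position (GRCm38.p6). Alternatives changed the scaling, filter, tool, cells, depth and mice.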

Additional observations from a re-analysis of the deposited data

Results flagged for a closer look

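A difference of the KO effect between kidney and spleen passed the test of the interaction in 12 genes, of which 10 are given here as the kidney effect minus the spleen effect on the log2 scale. It was 12.14 for S100a9, 9.99 for S100a8, 3.67 for Dsp, 1.55 for Zeb2, 1.41 for Perp, 1.38 for Fasl and 1.35 for Anxa2. It was -7.88 for Gatm, -7.78 for Fbp1 and -7.36 for Pck1. The values of S100a8, S100a9 and the 3 metabolic genes belong to transcripts found in few cells, and their size is not a measure of change per T cell. The groups of 2 and 3 mice were too small for a test of outlying mice.

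Cells with a Cd8a or Cd8b1 UMI, which the comparisons leave out, made up 11.7% and 15.98% of the first-day kidney cells of the KO mice (mean 13.8% ± 3.03 SD, n = 2). In the WT mice they made up 4.59%, 3.47% and 2.63% (mean 3.57% ± 0.981 SD, n = 3). Both KO mice were above all WT mice, and the difference was not tested. CD8 T cells with no UMI of either gene would remain among the cells compared above as CD4 T cells. Their share in each mouse, and their part in the differences, was not tested. In the spleen the means were 6.82% in KO and 2.43% in WT mice. The sort used antibodies to CD4 and CD8a.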

How the results depend on the processing

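The count of genes called in the kidney was 0 over all 5 mice with TMM, RLE and library-total scaling, with CD8-positive cells kept, with a quality filter, and without other-cell or naive-type cells (947 to 1277 genes at an unadjusted p of 0.05 by edgeR). It was 85 with DESeq2, 101 with no filter on low counts and 8 with sums thinned to 692991 UMIs, and from 0 to 835 when 1 mouse was left out, the 835 without WT1. The cause of these changes was not tested. The count of genes whose groups did not overlap was 3496, 2152 in thinned sums, and from 3984 to 8023 with a mouse left out, where fewer mice make overlap rarer. For Ezh2 the log2 difference was negative under every alternative, passing the test only without WT1 (-1.13), with -1.26 to -0.78 over mice left out. Of 1340 values of 97 other genes named in the text under an alternative, leaving out the 5 genes of the naive-type rule where those cells are removed, 1186 kept their direction and side of the threshold, 149 kept their direction and passed it, and 5 changed sign. The 5 were Aebp2 at -0.0121 in thinned sums, Usp18 at -0.663 and Perp at 0.0183 without naive-type cells, Icos at -0.0168 without WT2 (up to 0.85 over mice left out) and Vim at 0.0859 without KO1 (down to -0.34). The rule for naive-type cells was changed after the data were seen, and its earlier form is not reported here. All 66 values of the 11 cell shares kept their sign.

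Without the mouse as a replicate block, the comparison of organs called 0 genes (449 at an unadjusted p of 0.05 by edgeR) instead of 12. It called 290 with no filter, and from 0 (without KO2, 906 at an unadjusted p of 0.05) to 157 (without WT1) with a mouse left out, 2 without WT2 and 3 without KO1. Of 85 values of 10 of the 12 genes under an alternative, 43 remained past the threshold, 41 did not, and Gatm changed sign without KO1 (1.39, with -9.78 the other end over mice left out). The main limits are the 2 KO mice, the 184 cells of KO2 and the spread among the WT mice.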
